A study of Mus musculus with 21 samples.

Results

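The HSP70 and HSP90 heat shock chaperones are the subject here, followed through 4 stages of mouse sperm formation. The members were 10 genes chosen by name, *Hspa2*, *Hspa1l*, *Hspa4l*, *Hspa8*, *Hspa4*, *Hspa5*, *Hspa1a*, *Hspa1b*, *Hsp90aa1* and *Hsp90ab1*, out of 24456 genes in the deposited count tables, and all 10 had a row in all 21 libraries. RNA was sequenced from germ cell fractions of mouse testis that were wild-type for *H2al2* or carried a knockout (KO) of it. *H2al2* encodes a histone H2A variant of late spermatids. It was taken to be the row *H2afb1*, a name that RefSeq gives as a synonym of *H2al2a* and also of *H2ab1*. Pachytene spermatocytes, round spermatids and condensing spermatids had 3 libraries for each genotype, and spermatozoa had 2 wild-type libraries and 1 KO library.

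The labels give the tissue, the cell type and the genotype of each library. Age, strain and the form of the deletion are not given in the sources used here. The study calls the wild-type round spermatid libraries biological replicates. For the other groups the labels do not say what a replicate is, so p-values there measure only the spread between these libraries, which may be technical. Counts assigned to genes ran from 2772995 to 8201682 per library, and the 3 spermatozoa libraries held at most 3450580. Levels are given as CPM, the counts scaled to a common library total. *H2afb1* was at 200.8 to 211.4 normalised CPM in wild-type and 20.7 to 25.4 in KO round spermatids, and its KO and wild-type libraries did not overlap at any of the 4 stages. The summed markers of pachytene spermatocytes (10 genes) and of round spermatids (9 genes) were highest in the fractions of those names, while 8 markers of elongating spermatids summed to 22360 to 29110 CPM in round spermatids, a range that overlapped the 25640 to 38780 CPM of the condensing fraction. The spermatozoa libraries also held RNA of marker genes of other cells. The summed level of 7 macrophage markers was 727.4 to 773.6 CPM in wild-type and 3587 in KO spermatozoa, against 2.49 to 35.2 in the other 18 libraries, and that of 9 epididymal epithelium markers was 2122 to 2224 and 608.8, against at most 6.16. None of the 7 macrophage markers was at 0 there, whereas *Lcn5*, *Lcn8* and *Defb41* of the epididymal list were at 0 in all 3 spermatozoa libraries. In the KO library 6 of the 9 epididymal markers were at 0. Single genes made up much of both sums. *Crisp1* of the epididymal list was at a mean of 1523 CPM in wild-type and at 509.5 CPM in KO spermatozoa. *Lyz2* of the macrophage list was at 473.8 and 2371 CPM.

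HSP70 proteins bind exposed stretches of unfolded proteins and release them in a cycle of ATP hydrolysis, in which J-domain proteins stimulate hydrolysis and nucleotide exchange factors reset the chaperone. HSP90 proteins act later, on nearly folded clients such as kinases and receptors, and are steered by their own co-chaperones. The family has forms that every cell uses, forms made on heat or other stress under the heat shock transcription factors, and forms known for their expression in the testis. HSPA2 is the HSP70 of meiotic and post-meiotic male germ cells, HSPA1L is a spermatid form, and HSPA4L is a testis-rich relative of HSPA4 in the HSP110 branch, whose members act as nucleotide exchange factors.

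The spermatid form and the stress-inducible forms lie side by side in the genome, and their upstream sequences are shown because these neighbours had different patterns below. On chromosome 17 of GRCm38, *Hspa1l* (chr17:34972703-34979285, plus strand, 2 exons) and the inducible *Hspa1a* (chr17:34969190-34972156, minus strand, 1 exon) are transcribed away from each other from starts 547 bases apart. *Hspa1b*, the second inducible copy, follows at chr17:34956436-34959238 on the minus strand. The 250 bases before the start of *Hspa1l* (chr17:34972453-34972702, plus strand) and of *Hspa1a* (chr17:34972157-34972406, minus strand) were taken from RefSeq, build GRCm38.p6, and neither window overlaps an annotated exon. Capitals mark the head-to-head core of a heat shock element, GAANNTTC.
Hspa1l: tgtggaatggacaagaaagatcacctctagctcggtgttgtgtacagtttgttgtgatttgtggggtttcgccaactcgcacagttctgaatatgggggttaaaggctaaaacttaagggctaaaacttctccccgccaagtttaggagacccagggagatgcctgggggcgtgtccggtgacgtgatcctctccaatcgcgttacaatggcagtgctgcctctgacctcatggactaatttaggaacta
Hspa1a: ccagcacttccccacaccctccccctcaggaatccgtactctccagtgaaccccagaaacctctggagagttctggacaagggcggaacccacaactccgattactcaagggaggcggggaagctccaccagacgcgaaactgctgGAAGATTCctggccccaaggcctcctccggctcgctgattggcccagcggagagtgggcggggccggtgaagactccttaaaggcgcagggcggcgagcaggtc

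The core GAAGATTC stood 104 bases before the start of *Hspa1a* and equally of *Hspa1b*, whose upstream windows had 247 of 250 bases the same. No such core stood in the *Hspa1l* window. Both strands were searched in the 250 bases before the start of 7 members (*Hspa2*, *Hspa1l*, *Hspa1a*, *Hspa1b*, *Hspa4*, *Hspa4l* and *Hspa5*), counted from the RefSeq start, and GAANNTTC was found in 6.69% of 32851 windows of this length. The tail-to-tail form TTCNNGAA, held by 7.17% of all windows, the cAMP response element TGACGTCA, held by 1.55%, and the TATA box TATAAA, held by 12.37%, were found in none of the 7. Only matches to these letters, with N as any base, were counted. Near matches were not, such as TATATAAG in the *Hspa5* window and TGACGTGA in the windows of *Hspa1l* and *Hspa5*. For *Hspa2*, *Hspa4l* and *Hspa5* the RefSeq start lies inside the GENCODE range of the gene given below, so their windows overlap that range. CCAAT was present once in the windows of *Hspa2*, *Hspa1l*, *Hspa1a* and *Hspa1b*, 4 times in that of *Hspa5* and in 33.85% of all windows. The window of *Hspa5*, which encodes the endoplasmic reticulum (ER) chaperone BiP, held an ER stress response element 65 bases before its RefSeq start, a 19-base match to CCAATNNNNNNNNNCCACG that 0.11% of windows had and that overlaps a CCAAT box.
Hspa5 element: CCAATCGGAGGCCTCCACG

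*Hspa2* lies at chr12:76404176-76406938 (plus strand), its longest transcript has 1 exon, and its RNA was highest in pachytene spermatocytes. Its normalised level there was 2278, 2421 and 1943 CPM in the 3 wild-type libraries. Round spermatids had 1520, 1363 and 1361 CPM, condensing spermatids 1029, 1085 and 729.4 CPM, and spermatozoa 351.8 and 354.8 CPM. Each stage lay below the one before it with no overlap. The log2 fold change was -0.61 ± 0.15 (SE) from pachytene spermatocytes to round spermatids (edgeR quasi-likelihood test, adjusted p = 0.00301), -0.56 ± 0.15 from round to condensing spermatids (adjusted p = 0.0096) and -1.37 ± 0.18 from condensing spermatids to spermatozoa (adjusted p = 7.454e-07). In bulk fractions, fewer cells of a type and less RNA per cell cannot be told apart.

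*Hspa1l* rose where *Hspa2* fell. Its level was 228.1, 225.5 and 108.8 CPM in wild-type pachytene spermatocytes and 1180, 1194 and 1229 CPM in round spermatids, a 6.56-fold rise (log2 fold change 2.71 ± 0.26, adjusted p = 8.737e-07). Condensing spermatids had 1061, 996.4 and 1549 CPM, around the round spermatid values, and the log2 fold change of 0.03 (95% interval -0.49 to 0.55) did not pass the test. Spermatozoa were at 189.8 and 193.2 CPM, 6.08-fold below condensing spermatids (log2 fold change -2.60 ± 0.21, adjusted p = 3.721e-10). The third pachytene library, with the lowest *Hspa1l*, also had the lowest summed level of 8 elongating spermatid markers, 2105 CPM against 5289 and 5098 CPM in the other wild-type libraries of that stage. The third condensing library had the highest *Hspa1l*, the lowest *Hspa2* and the highest summed elongating spermatid markers of its group, 38450 CPM against 31430 and 26390 CPM, and the part of these markers in either value was not tested.

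*Hspa4l* (chr3:40744495-40796103, plus strand) took an intermediate course. It was at 942, 727.3 and 958.4 CPM in wild-type pachytene spermatocytes and at 1350, 1540 and 1524 CPM in round spermatids, with no overlap (log2 fold change 0.78 ± 0.14, adjusted p = 0.000294). In condensing spermatids it was at 1310, 1380 and 1576 CPM, a log2 difference of -0.02 (95% interval -0.33 to 0.28) that did not pass the test. Spermatozoa were at 692.6 and 587.6 CPM (log2 fold change -1.10 ± 0.17, adjusted p = 6.619e-06). All 3 testis forms were therefore lower in spermatozoa than in condensing spermatids, while their earlier courses differed.

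**Figure D1:**
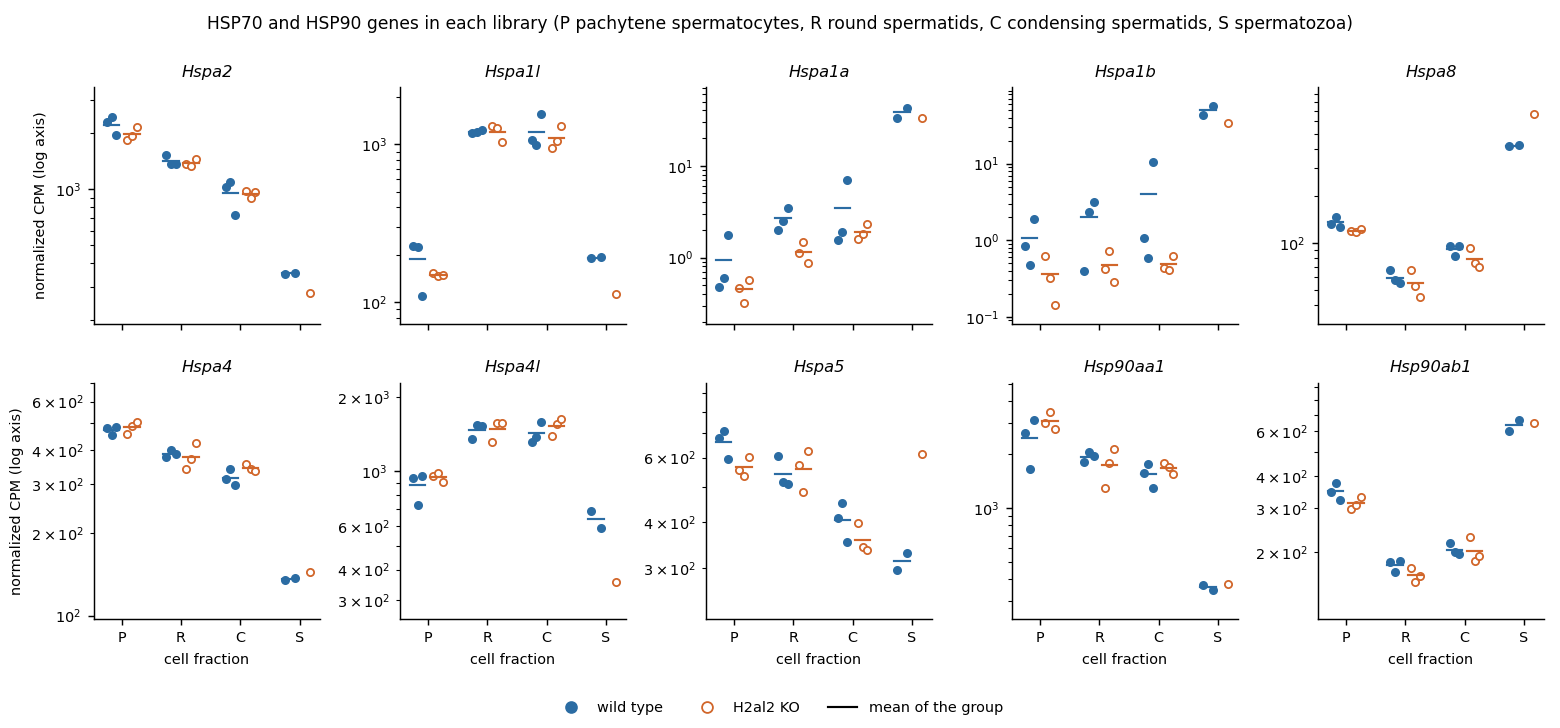
Normalised CPM (log axis) of the 10 chaperone genes in pachytene spermatocytes (P), round spermatids (R), condensing spermatids (C) and spermatozoa (S), with 1 point per library, filled blue for wild-type, open orange for KO, and bars at the group means. *Hspa2* steps down from a mean of 2214 to 353.3 CPM over the 4 wild-type stages, *Hspa1l* peaks in the spermatids, and *Hspa1a*, *Hspa1b*, *Hspa8* and *Hsp90ab1* are highest in spermatozoa.

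Among the constitutive forms, *Hspa8* (chr9:40800984-40810087, plus strand) encodes HSC70, the cytosolic HSP70 that all cells use. It was at 131.5, 147 and 127 CPM in wild-type pachytene spermatocytes and at 66.9, 57.6 and 55.4 CPM in round spermatids, where its log2 fold change was -1.14 ± 0.12 (adjusted p = 2.643e-06). Condensing spermatids had 95.8, 82.3 and 95.4 CPM, a rise of 0.63 ± 0.12 on the log2 scale (adjusted p = 0.00115), and spermatozoa had 417.1 and 421.1 CPM, a further rise of 2.25 ± 0.14 (adjusted p = 1.557e-11). The lowest stage was thus the round spermatid, and spermatozoa lay above all 18 other libraries. Of the stretches of 75 bases, the read length, in its exons, 66.5% also occur in exons of other genes, mostly *Gm15459*, and reads with several places were not counted, so its level may be underestimated at every stage.

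*Hspa4* (chr11:53259814-53300457, minus strand), the somatic HSP110 relative of *Hspa4l*, had a lower mean at each wild-type stage than at the one before. Wild-type pachytene spermatocytes had 480.2, 453.4 and 484.8 CPM and round spermatids 376.3, 401.6 and 386.2 CPM. Condensing spermatids had 312.9, 341.6 and 297.3 CPM. The libraries of successive stages did not overlap, yet neither step passed the test (adjusted p = 0.0552 and 0.0607). The first step passed in 3 and the second in 4 of 14 alternatives. With all libraries, DESeq2 called both (adjusted p = 0.0381 and 0.00578). In edgeR the first passed with scaling by library size alone (adjusted p = 0.0049) and without pachytene library 2 (-0.29, adjusted p = 0.0421). The second passed with DESeq2 size factors (adjusted p = 0.0315), on the 6 libraries compared (adjusted p = 0.046) and without condensing library 2 (-0.36, adjusted p = 0.0398). Spermatozoa were at 135.3 and 137 CPM (log2 fold change -1.17 ± 0.15, adjusted p = 5.421e-07).

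*Hspa5* (chr2:34771970-34777547, plus strand) was the ER form, and its step to round spermatids did not pass the test. The wild-type libraries read 677.8, 707.4 and 595.6 CPM in pachytene spermatocytes and 605.2, 515.1 and 507.9 CPM in round spermatids (log2 fold change -0.25, 95% interval -0.53 to 0.03), though it passed without pachytene library 3 (-0.32, adjusted p = 0.0381). It was lower in condensing spermatids, at 412, 452.8 and 353.2 CPM (log2 fold change -0.40 ± 0.13, adjusted p = 0.0241), a call kept in 10 of 14 alternatives. Among the 4 that lost it, leaving out the third condensing library gave -0.31 with adjusted p = 0.064, leaving out the condensing or the round spermatid library 1 gave -0.41 with adjusted p = 0.0585 and -0.32 with adjusted p = 0.0974, and scaling by library size alone gave -0.33 with adjusted p = 0.0664. The 296.7 and 329.9 CPM of spermatozoa were below condensing spermatids with a log2 fold change of -0.33 ± 0.16 that did not pass (adjusted p = 0.0649) but did without condensing library 3 (-0.41, adjusted p = 0.00138).

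The inducible copies *Hspa1a* and *Hspa1b* had few counts in all fractions but spermatozoa. *Hspa1a* had 4, 5 and 12 counts in wild-type pachytene spermatocytes, then 15, 18 and 24 at the round and 10, 13 and 40 at the condensing stage. *Hspa1b* had 7, 4 and 13, then 3, 17 and 22, then 7, 4 and 59 counts. The third condensing library accounted for most of the counts of both genes at that stage. In spermatozoa, *Hspa1a* had 114 and 124 counts, or 33.2 and 43 CPM, and *Hspa1b* had 150 and 163 counts, or 43.7 and 56.5 CPM, in libraries that were the shallowest of the series.

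The step from condensing spermatids to spermatozoa was a log2 fold change of 3.54 ± 0.35 for *Hspa1a* (adjusted p = 1.286e-08) and 3.77 ± 0.48 for *Hspa1b* (adjusted p = 4.507e-07). Without the third condensing library these were 4.50 and 5.93. The earlier rise of *Hspa1a* from pachytene spermatocytes to round spermatids, 1.57 ± 0.64 (adjusted p = 0.043), was called in 8 of 13 alternatives. Leaving out pachytene library 1 or 2 or round spermatid library 2 or 3, or scaling by library size alone, ended the call, with adjusted p from 0.0635 to 0.137, and without pachytene library 3 the log2 fold change was 2.29. The other step of *Hspa1a* and both earlier steps of *Hspa1b* did not pass. The 2 genes share 1524 stretches of 75 bases, which make up 52.7% of *Hspa1a* and 55.8% of *Hspa1b*, so a share of the reads of each was not counted.

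The cytosolic HSP90 pair moved in opposite directions into spermatozoa. *Hsp90aa1* (chr12:110690605-110702728, minus strand) encodes the alpha form, which is inducible in somatic cells and abundant in male germ cells. Wild-type pachytene spermatocytes had 2636, 1649 and 3132 CPM and round spermatids 1819, 2059 and 1949 CPM. Condensing spermatids had 1576, 1774 and 1305 CPM. The groups overlapped at the first step, and neither step passed (adjusted p = 0.177 and 0.237). Spermatozoa were at 371.4 and 349.3 CPM, 4.16-fold below condensing spermatids (log2 fold change -2.06 ± 0.18, adjusted p = 2.083e-09).

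*Hsp90ab1* (chr17:45567775-45573271, minus strand), the constitutive beta form, was at 345.3, 376.6 and 322.4 CPM in wild-type pachytene spermatocytes and at 183.1, 167.3 and 184.3 CPM in round spermatids (log2 fold change -0.93 ± 0.11, adjusted p = 7.335e-06). Condensing spermatids had 217.4, 200.9 and 196.6 CPM, above every round spermatid library, with a log2 fold change of 0.23 ± 0.11 that did not pass (adjusted p = 0.112). Spermatozoa had 600.5 and 668.4 CPM, 3.20-fold above condensing spermatids (log2 fold change 1.68 ± 0.15, adjusted p = 1.539e-09). Like *Hspa8*, it was thus lowest in round spermatids and highest in spermatozoa.

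Each step was set against the whole table. From pachytene spermatocytes to round spermatids, 3 members were higher and 3 lower of the 10 tested, where 70.3% of 14011 genes were called, 4816 higher and 5031 lower. With scaling by library size alone the member split was 2 higher and 6 lower. From round to condensing spermatids, 1 member was higher (*Hspa8*) and 2 lower (*Hspa2* and *Hspa5*), with 50.0% of genes called. A fit on the 6 libraries of those stages called 5 members, *Hspa4* and *Hsp90ab1* being added. From condensing spermatids to spermatozoa, 4 members were higher (*Hspa1a*, *Hspa1b*, *Hspa8* and *Hsp90ab1*) and 5 lower, with 72.4% of 15116 genes called. Set beside these shares of all genes, the counts of 6, 3 and 9 members are not read as a result about the family. The median log2 fold change of the members was -0.25, 0.0011 and -0.72 at the 3 steps, against -0.016, 0.043 and -0.00014 over all genes tested. Successive steps share a stage and its libraries.

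**Figure D2:**
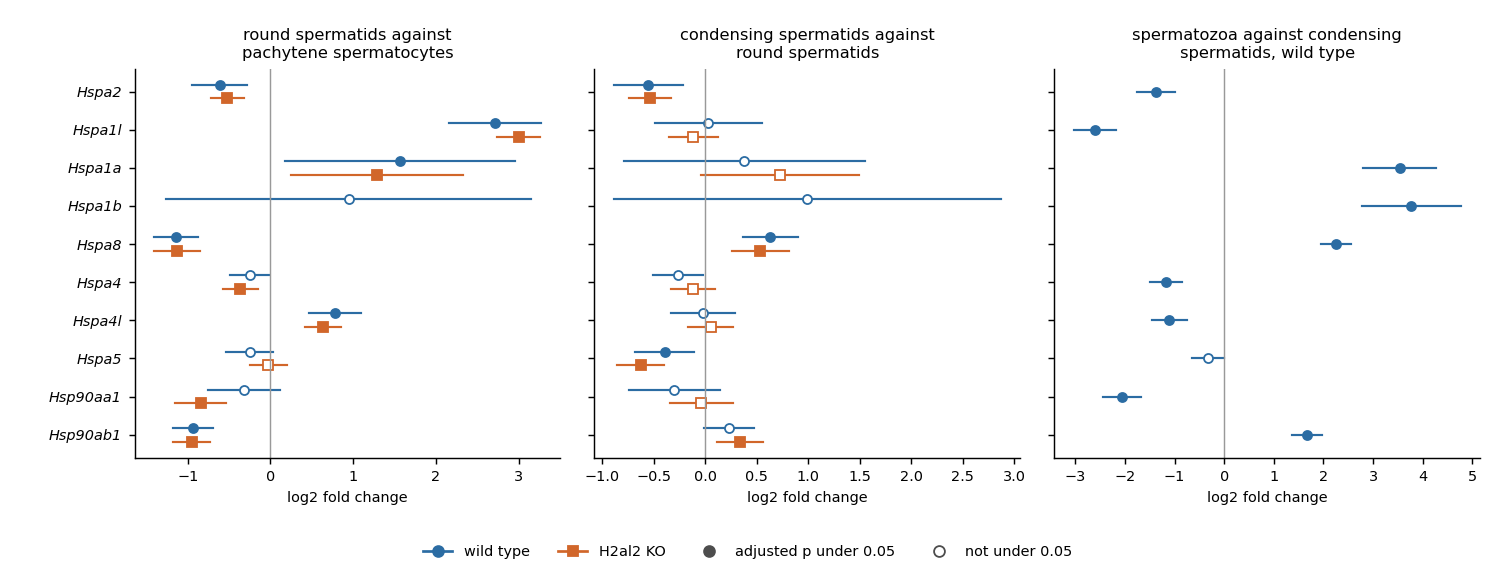
Log2 fold changes with 95% intervals for each chaperone gene at each step between stages, as circles for wild-type and squares for KO libraries, filled where the adjusted p was under 0.05. *Hspa1l* stands out at the step to round spermatids, with 2.71 in wild-type and 3.0 in KO libraries, and in spermatozoa *Hspa1a*, *Hspa1b*, *Hspa8* and *Hsp90ab1* lie to the right of 0 while the testis forms lie to the left.

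The summed macrophage and epididymal markers given above moved with the 4 members that were higher in spermatozoa, being higher in both wild-type spermatozoa libraries than in any library of an earlier stage. The 10 immediate early genes, transcribed within minutes of stimulation in somatic cells, summed to 778.9 and 830.4 CPM in wild-type spermatozoa against 23.6 to 51.0 in the 18 earlier libraries. The 8 heat shock response genes that are not members summed to 357.1 and 364.6 CPM, below the 482 to 737.6 CPM of the earlier fractions. *Dnajb1* and *Dnaja1* made up much of this sum. Their means were 256.3 and 146.4 CPM in wild-type condensing spermatids and 118.8 and 93.7 CPM in wild-type spermatozoa. *Hspe1*, *Chordc1* and *Hspd1* of the same list were called higher at that step, so the sum does not speak for each gene. The part of other cells in the spermatozoa levels of *Hspa1a*, *Hspa1b*, *Hspa8* and *Hsp90ab1* was not tested. Condensing spermatids had Sertoli markers summing to 509.5 to 714.3 CPM, against 16.6 to 70.9 in the 2 earlier stages, and the part of these in the rise of *Hspa8* was likewise not tested. The 7 Leydig markers summed to 79.7 to 164.2 CPM in wild-type pachytene spermatocytes. They summed to 11.3 to 15.1 CPM in round and 147.1 to 232.3 CPM in condensing spermatids. Of these stages they were lowest in round spermatids, as *Hspa8* and *Hsp90ab1* were. In wild-type spermatozoa, where both genes were highest, the Leydig markers summed to 11.4 to 11.8 CPM. The part of the Leydig markers was not tested.

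Levels of different genes were compared per kilobase of exon. In wild-type pachytene spermatocytes *Hspa2* led with 837.4 ± 92.8 CPM per kilobase (SD, n = 3), followed by *Hsp90aa1* with 753.6 ± 230 and *Hspa5* with 252.7. The libraries of *Hspa2* and *Hsp90aa1* overlapped, so their order is not resolved. *Hspa1l* was seventh at 75.8 and the inducible copies were last at 0.384 for *Hspa1b* and 0.319 for *Hspa1a*. In round spermatids the top 3 were *Hsp90aa1* at 592, *Hspa2* at 535.1 and *Hspa1l* at 486 CPM per kilobase, of which *Hsp90aa1* and *Hspa2* overlapped. In condensing spermatids they were *Hspa1l* at 486.3, *Hsp90aa1* at 472.9 and *Hspa2* at 358.4, and each overlapped its neighbour. Scaled to the part of its exons that no other gene shares, *Hsp90aa1* would lead each of these stages. In pachytene spermatocytes it would be at 1644 against 862.5 for *Hspa2*. In round spermatids it would be at 1291 against 551.1 for *Hspa2* and 501 for *Hspa1l*, and in condensing spermatids at 1032 against 369.2 and 501.3. This scaling takes each read alone, as if no read in shared sequence was counted. Reads were paired, and a pair with a mate in unshared sequence may have been counted. Values scaled in this way may therefore be too high, by an amount that was not measured.

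In wild-type spermatozoa the order was turned. *Hsp90ab1* led with 251.8 CPM per kilobase and *Hspa8* followed with 175.1, ahead of *Hspa2* with 133.6, *Hspa5* with 119.9, *Hsp90aa1* with 109.8 and *Hspa1l* with 77.5. *Hspa1b* and *Hspa1a* were still last, at 17.9 and 12.9. No neighbours in this order overlapped over the 2 libraries. On the same scale *Hspa8* would be at 523.2 in spermatozoa and 168.7 in pachytene spermatocytes, and *Hsp90aa1*, with 53.1% shared sequence, at 239.6 and 1644. *Hsp90ab1* would then be at 261.3 in spermatozoa, below *Hspa8* and near *Hsp90aa1*.

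The make-up of the HSP70 pool followed from these levels. *Hspa2*, *Hspa1l* and *Hspa4l* together were 71.6%, 71.6% and 69.4% of the summed level per kilobase of the 8 HSP70 genes in wild-type pachytene spermatocytes. They were 77.8%, 78.9% and 79.5% in round spermatids. Condensing spermatids had 78.2%, 77.2% and 81.3%, and spermatozoa 45.1% and 42.8%. Scaled to sequence that no other gene shares, the wild-type means were 65.9%, 76.2%, 74.5% and 27.7% over the 4 stages. Of the summed level of all 8 HSP70 genes per kilobase of exon, *Hspa2* made up 59% ± 1.3 in pachytene spermatocytes and 35.8% ± 1.42 in round spermatids. *Hspa1l* made up 5.26% ± 1.55 and 32.5% ± 1.34 (SD, n = 3). The ratio of *Hspa1l* to *Hspa2* per kilobase was 0.0889 ± 0.0254 in the pachytene fraction, 0.911 ± 0.0714 in round spermatids and 1.45 ± 0.712 in the condensing fraction, where the third library alone had 2.27. These shares are a description of chosen genes and carry no test.

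**Figure D3:**
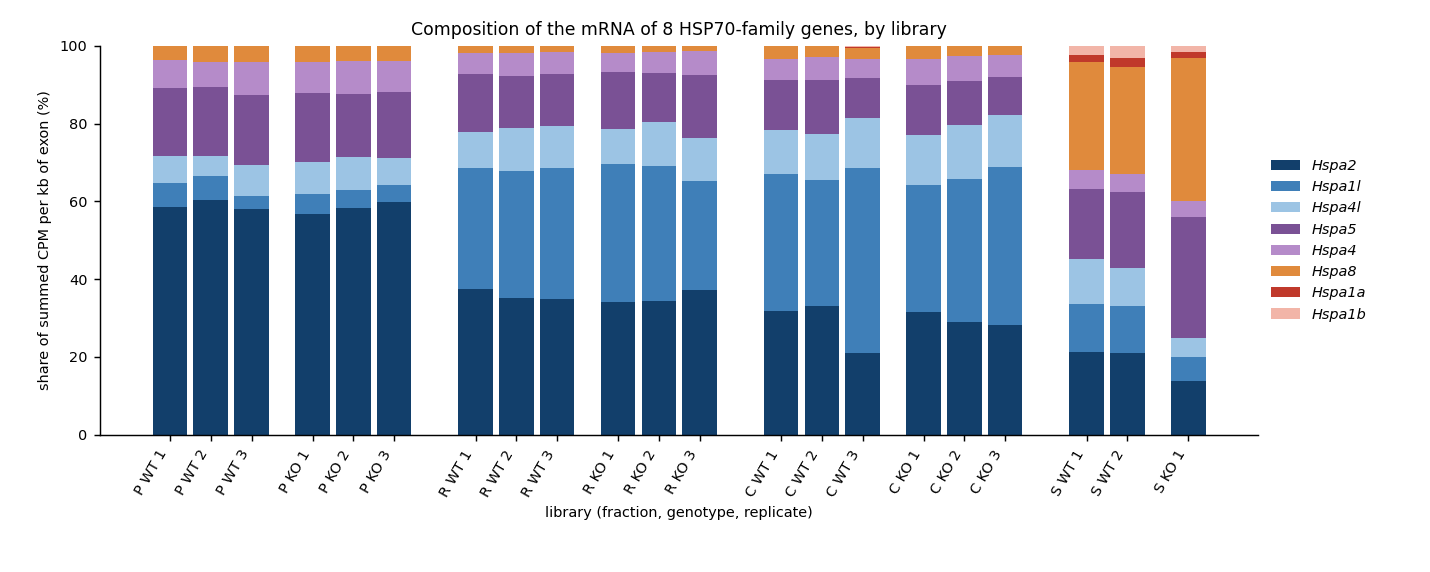
Share (%) of each of the 8 HSP70 genes in their summed normalised CPM per kilobase of exon, 1 stacked bar per library, grouped by stage and genotype. *Hspa2* is 59% in wild-type pachytene spermatocytes and 35.8% in round spermatids, where *Hspa1l* reaches 32.5%, and *Hspa8* and *Hspa5* widen in spermatozoa, most in the KO library.

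The summed level of the 8 HSP70 genes in wild-type cells was 1418 ± 132.2 CPM per kilobase at the pachytene stage, 1495 ± 36.8 at the round, 1259 ± 48.2 at the condensing and 633.8 ± 9.9 at the spermatozoon stage (SD, n = 2 for spermatozoa and 3 otherwise). Relative to the adjusted library total, the summed level was thus alike in pachytene spermatocytes and round spermatids, whose library ranges overlapped, while its make-up differed. The amount per cell was not measured. The ratio of *Hspa4l* to *Hspa4* was 0.90 ± 0.103, 1.85 ± 0.0896, 2.20 ± 0.336 and 2.29 ± 0.287 over the 4 stages. Of the HSP90 pair, *Hsp90aa1* made up 83.6% ± 5.78, 89.3% ± 1.03 and 85.2% ± 1.81 in the 3 testis stages and 30.4% ± 2.52 in spermatozoa. Scaled to unshared sequence the means were 91.4%, 94.6%, 92.3% and 47.9%.

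The steps were tested again in the KO libraries, which are separate samples. From pachytene spermatocytes to round spermatids, *Hspa1l* went from 152.3, 146.9 and 148.6 CPM to 1318, 1265 and 1029 CPM in the KO, a log2 fold change of 3.0 ± 0.13 (adjusted p = 2.399e-13). *Hspa2* went from 1822, 1930 and 2147 CPM to 1365, 1330 and 1457 CPM (log2 fold change -0.52, adjusted p = 7.911e-05). In all, 3 of the 9 members tested were higher and 5 lower at this step in the KO, where 74.9% of genes were called. All 6 members called in wild-type libraries were called in the same direction in the KO and made up 75.0% of the 8 KO calls, while over all genes in both fits 92.3% of wild-type calls and 87.0% of KO calls were shared.

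*Hspa4* and *Hsp90aa1* were called in the KO alone at that step. *Hsp90aa1* went from 3015, 3470 and 2797 CPM to 1294, 1798 and 2139 CPM in the KO (log2 fold change -0.84 ± 0.15, adjusted p = 3.762e-05), against -0.32 ± 0.20 in wild-type libraries, where pachytene library 2 at 1649 CPM lay well under the other 2. The difference between these changes, an interaction term over 18 libraries, was -0.53 ± 0.28 on the log2 scale and did not pass (adjusted p = 0.677), and that was the lowest adjusted p of this term over the members. Without that pachytene library the wild-type change was -0.55 with adjusted p = 0.00619. *Hspa1a* rose by 1.28 on the log2 scale in the KO (adjusted p = 0.0258), a call kept in 7 of 12 alternatives, the highest adjusted p being 0.107. Leaving out pachytene KO library 1 or 2 or round spermatid KO library 2 was among the settings that lost it. *Hspa1b* was under the filter on low counts in the KO fits and was not tested.

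From round to condensing spermatids in the KO, *Hspa8* (log2 fold change 0.53, adjusted p = 0.00223) and *Hsp90ab1* (0.34, adjusted p = 0.0108) were higher. *Hspa2* (-0.54, adjusted p = 0.00013) and *Hspa5* (-0.63, adjusted p = 8.554e-05) were lower, and 54.2% of genes were called. The call for *Hsp90ab1* was lost without round spermatid KO library 2 (adjusted p = 0.0558) or condensing KO library 1 (adjusted p = 0.0911). All 3 wild-type calls recurred in the KO in the same direction and made up 75.0% of its 4 calls, against 85.9% and 79.2% over all genes.

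The comparison of KO with wild-type libraries within a stage asked whether chaperone RNA differed without *H2al2*, and no member passed the test at any of the 3 stages with replicates. In pachytene spermatocytes, where *Hspa1a* and *Hspa1b* were under the filter on low counts, 0 of 8 members tested were called (edgeR, background 0.0% of 12236 genes), and none had an unadjusted p under 0.05. In round spermatids 0 of 9 were called (background 0.0156%, or 2 genes, and 61 genes with the replicate number as a block, which also called 0 members), and 1 member, *Hspa1a*, had an unadjusted p under 0.05. Condensing spermatids gave 0 calls of 9 tested (background 0.00728%), and none was under 0.05 unadjusted. DESeq2 also called 0 members at each stage. The change of the KO effect between stages was called for 0 of 10 members from pachytene spermatocytes to round spermatids (background 0.0%) and 0 of 10 from round to condensing spermatids (background 0.0%), with no member under an unadjusted p of 0.05 and none called by DESeq2.

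The intervals limit how large a genotype effect could have been. In round spermatids *Hspa2* was at 1365, 1330 and 1457 CPM in the KO and differed from wild-type by -0.02 on the log2 scale (95% interval -0.18 to 0.14). *Hspa1l* differed by 0.01 (-0.19 to 0.22) and *Hspa4l*, at 1311, 1562 and 1569 CPM, by 0.02. Over the 8 members other than the inducible copies, the log2 differences ran from -0.14 to 0.057 in round spermatids with interval bounds from -0.46 to 0.28. With the replicate number as a block they ran from -0.17 to 0.053 with bounds from -0.37 to 0.23, and the lowest adjusted p was 0.652. *Hsp90ab1* and *Hspa8* were lower in the KO in all 3 same-numbered pairs, at -0.12 (95% interval -0.28 to 0.043) and -0.12 (-0.32 to 0.073). In pachytene spermatocytes the log2 differences of the 8 members in the main fit, without the block, ran from -0.24 to 0.38 with bounds from -0.73 to 0.93. In condensing spermatids they ran from -0.22 to 0.11 with bounds from -0.52 to 0.41.

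*Hspa1a* in round spermatids had 8, 10 and 6 counts in the KO, all under the 15, 18 and 24 of the wild-type libraries. The log2 difference of -1.19 ± 0.36 had an unadjusted p of 0.00621 and an adjusted p of 0.616 over all genes. *Hspa1b* had 3, 5 and 2 counts in the KO against 3, 17 and 22, and was under the filter on low counts. Without wild-type library 1 it passed both the filter and the test, with a log2 difference of -2.48 ± 0.46 and adjusted p = 0.0145, in a fit that called 264 genes in all. In pachytene spermatocytes, leaving out wild-type library 3 brought *Hspa1l* past the threshold, at -0.49 with adjusted p = 0.0479 against -0.24 and 0.708 with all libraries, and 243 genes were then called against 0. *Hspa8* in pachytene spermatocytes was at 118.3, 117 and 123.4 CPM in the KO, all under the wild-type values, but the log2 difference of -0.11 did not pass (adjusted p = 0.708).

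**Figure D4:**
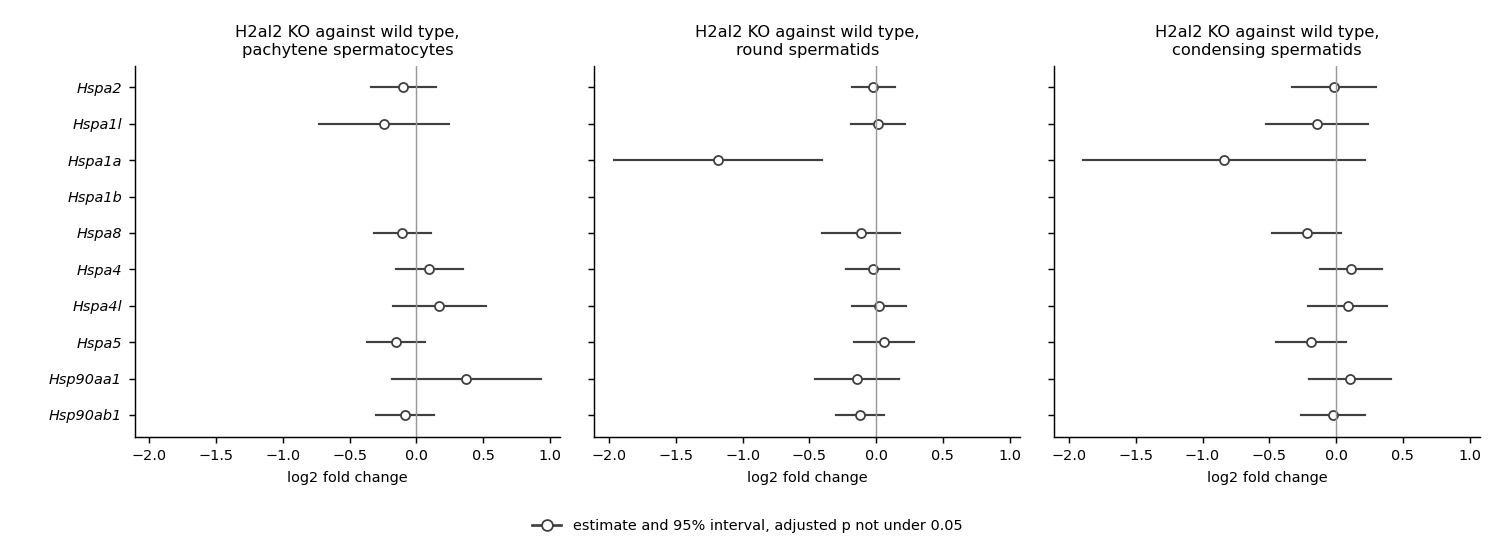
Log2 difference between KO and wild-type libraries for each chaperone gene tested at the 3 stages with replicates, with 95% intervals. The 8 members other than *Hspa1a* and *Hspa1b* lie between -0.24 and 0.38, and *Hspa1a* in round spermatids, at -1.19, was not called after adjustment.

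The single KO library of spermatozoa was not tested. It had *Hspa2* at 275.9, *Hspa1l* at 113.6 and *Hspa4l* at 354.5 CPM, each under both wild-type libraries, and *Hspa8* at 666.3 and *Hspa5* at 613 CPM, each over both. *Hspa1a* at 32.9 and *Hspa1b* at 33.8 CPM were under both wild-type libraries, and *Hsp90ab1* at 649.6 CPM lay between them. The testis forms were 24.9% of its HSP70 level, against 45.1% and 42.8%. *Hsp90aa1* made up 30.8% of its HSP90 pair, near the wild-type share. This library also had the summed macrophage markers at 3587 CPM, the immediate early genes at 4118 CPM and the elongating spermatid markers at 10630 CPM against 30640 to 34980 CPM in the wild-type libraries, and the part of genotype and of these differences cannot be told apart.

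The members fell into courses of their own when all 21 libraries were correlated on log2(CPM + 1), as a description over libraries that share stages. The spermatozoa libraries, where *Hspa1a*, *Hspa1b*, *Hspa8* and *Hsp90ab1* were highest, were included, and the correlations without them were not computed. *Hspa4* went with *Hsp90aa1* (Pearson's r = 0.98) and *Hspa2* (0.967), *Hspa8* with *Hsp90ab1* (0.967) and *Hspa1a* with *Hspa1b* (0.967). *Hspa4l* ran opposite to *Hsp90ab1* (-0.946) and *Hspa8* (-0.938). *Hspa2* and *Hspa1l*, both testis forms, had r = 0.033. Of 8995 genes with a mean of at least 10 CPM, those most like *Hspa2* were *Mum1* (0.996), *Pmpcb* (0.995) and *Gbf1* (0.995). Those most like *Hspa1l* were *Cdc14a* (0.998), *Actrt2* (0.997) and *Eef1d* (0.997), and those most like *Hspa4l* were *Zdbf2* (0.978), *Cfap69* (0.976) and *Psme4* (0.973).

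The other genes of the chaperone system were read from 10 lists of 113 genes that are not members. From pachytene spermatocytes to round spermatids, 35 of 109 tested were higher and 41 lower, where 70.3% of all genes were called, and the median log2 fold change was 0.0019 against -0.016 for all genes. The lists below are given as counts beside that share of all genes. Of 27 J-domain co-chaperones, 15 were higher and 5 lower, with 4816 higher and 5031 lower over all genes. *Dnajb7*, *Dnajc5b* and *Dnajb8*, of which *Dnajc5b* is a relative of a synaptic vesicle J protein, rose by 2.71, 2.59 and 2.59 on the log2 scale, and *Dnajc3*, an ER-stress J protein, was at -1.91. Of 12 exchange factors and regulators of HSP70, 4 were higher, among them *Bag5* (1.36) and *Bag1* (1.28), and 4 lower. Of 21 HSP90 co-chaperones 3 were higher and 12 lower, with *Tomm34*, a cytosolic partner of mitochondrial import, at -3.14 and the phosphatase *Ppp5c* at -2.87.

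Genes around *Hspa5* and the inducible copies were listed too. Of 18 genes of the ER unfolded protein response 3 were higher and 12 lower at that step, *Sdf2l1* at -2.73 and *Hyou1*, the ER member of the HSP110 branch, at -2.38, where *Hspa5* itself did not pass. Of the 5 testis ER chaperones, *Calr3* (2.16) and *Pdilt* (2.14) were higher and 1 was lower. Of the 6 genes tested of heat shock factors and proteins that bind them, *Hsf2* (2.09) and *Hsfy2* (2.13) were higher, and *Hsf1*, the main factor of the heat response, was lower at -0.59 with *Hsf5* (-0.59) and *Hsf2bp* (-0.93). Of 11 clients and partners of HSPA2, 5 were higher, among them the transition proteins *Tnp1* (2.83) and *Tnp2* (2.80), and 4 lower, among them *Sycp3* of the synaptonemal complex (-1.45) and *Shcbp1l* (-1.39).

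From round to condensing spermatids, 29 of 109 partner genes were higher and 38 lower, with a median of -0.21, where 50.0% of all genes were called, 3961 higher and 3048 lower, with a median of 0.043. All 6 genes of the heat shock factor list tested were lower, *Hsf2* at -1.08, and 9 of 27 J-domain genes were lower against 2 higher. The exchange factor *Bag2* (3.10) and the small heat shock protein *Hspb1* (2.66) were higher, both from low levels. Their means were 0.79 and 1.43 CPM in round and 6.77 and 9.01 CPM in condensing spermatids. The part of the Sertoli markers given above in these changes was not tested. From condensing spermatids to spermatozoa, 28 of 111 were higher and 62 lower, with a median of -0.60, where 72.4% of all genes were called, 5533 higher and 5412 lower, with a median of -0.00014. All 11 clients and partners of HSPA2 and all 5 testis ER chaperones were lower. All 10 immediate early genes were higher, led by *Atf3* (6.99) and *Junb* (5.73). Of the 10 heat shock response genes, of which *Hspa1a* and *Hspa1b* are 2, 5 were higher and 4 lower. Besides those 2 copies, *Hspe1* (1.36), *Chordc1* (1.36) and *Hspd1* (0.55) were higher. *Hspb1* (-1.87), *Dnajb1* (-1.06) and *Dnaja1* (-0.60) were among the lower. Between KO and wild-type, 0 partner genes were called by edgeR and 0 by DESeq2 at each of the 3 stages, with 7 of 103, 2 of 106 and 6 of 109 at an unadjusted p under 0.05.

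**Figure D5:**
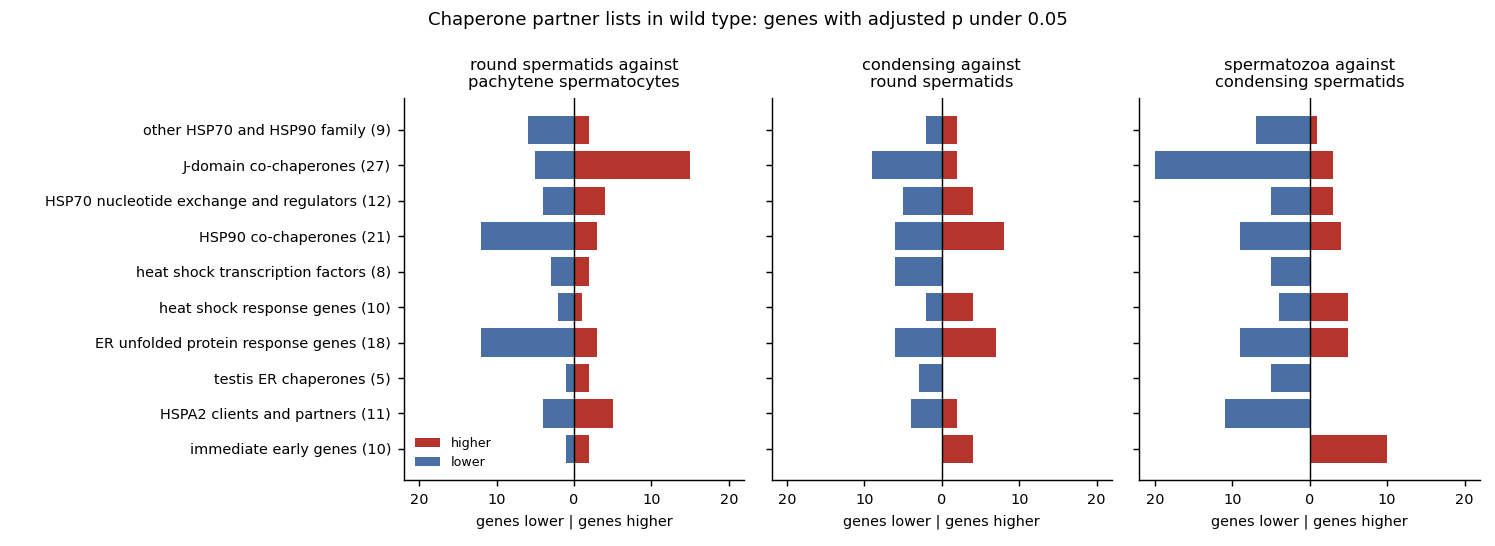
Number of genes called higher (right) and lower (left) in each list of chaperone partners at the 3 steps between wild-type stages. At the step to spermatozoa all 11 HSPA2 clients and partners and all 5 testis ER chaperones are lower and all 10 immediate early genes are higher, where 72.4% of all genes were called.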

How the data were processed

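Total RNA of 21 purified spermatogenic fractions was sequenced after ribosomal RNA depletion with a strand-specific kit (paired-end 75). The authors mapped reads without trimming, by STAR 2.7.11b on mm10, and counted exons with HTSeq, reverse-stranded, without reads placed at several loci, and the deposited values are raw counts per gene, of which rows that name no gene (34.6% to 57.7%) were left out. The submitters' notes also name DESeq2 1.22.2.

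Counts were tested with edgeR 4.0.16 (limma 3.58.1, R 4.3.3), with trimmed mean of M values (TMM) scaling, filterByExpr, the quasi-likelihood test and Benjamini-Hochberg adjustment over all genes tested, at a threshold of 0.05. Wild-type and KO stage steps were fitted on 9 libraries each, spermatozoa on 5, genotypes on 6 and interactions on 18. Levels are CPM on 1 scale over all 21 libraries, divided by exon length where genes are compared. Lengths and positions came from GENCODE vM21 for GRCm38. The script was tested on simulated counts. DESeq2 1.42.0, other scalings, filters, fits, the replicate block and leaving out libraries were alternatives.

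Same-numbered libraries deviated together in all 3 pairs only between wild-type and KO round spermatids (r = 0.375, 0.194 and 0.104 over 8995 genes with at least 10 CPM). The main tests used no pairing. For round spermatids, a fit with the replicate number as a block is given beside the main fit. Members and lists were chosen with earlier results of these data known. The genes named are all members, the up to 3 called partner genes of each list, direction and step with the largest change and a mean of at least 1 CPM, of which some are given, and the 3 genes most like each testis form.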

Additional observations from a re-analysis of the deposited data

How the results depend on the processing

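Of 924 alternative values for the gene results given singly in the text, 859 kept their direction and their side of the threshold, 16 lost a call, 18 gained one and 31 turned sign, all 31 not called under either setting. Over all 94 member results, those given only as ranges included, 84 of 1393 alternative values turned sign, in 28 results of which none was called in any setting. Scaling by library size alone moved the median of all genes from -0.016 to -0.20 at the wild-type step from pachytene spermatocytes to round spermatids. The number of members called ran from 5 to 8 at that step, from 2 to 5 at the next (5 on the 6 libraries compared) and from 8 to 10 in spermatozoa, and in the KO from 7 to 8 and from 3 to 4. Between genotypes, leaving out 1 library gave 0 to 1 members in pachytene spermatocytes and 0 to 1 in round spermatids. With the replicate block 6, 3 and 10 members were called at the wild-type steps, *Hspa5* being gained in spermatozoa (-0.41, adjusted p = 0.000804), 8 and 4 in the KO and 0 between genotypes. Over all genes, the calls between genotypes went in round spermatids from 2 to 61 with the block, 28 with no filter, 6 with DESeq2 and 264 without wild-type library 1. They went from 0 to 243 in pachytene spermatocytes without wild-type library 3 and to 2 with DESeq2. In condensing spermatids they went from 1 to 26 with the block, 27 with no filter, 13 with DESeq2 and 7 with library size. The cause of these changes was not tested.

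The share of testis forms, 70.9%, 78.7%, 78.9% and 44% as means over the 4 wild-type stages, was 80.4%, 81.2% and 55.3% from round spermatids on with no division by length, and 46.2% in spermatozoa without *Hspa1a* and *Hspa1b*. Chosen after seeing the data, length over all GENCODE exons gave 78.2%, 84.3%, 84.4% and 53.9%, and length of sequence not shared with other genes gave 65.9%, 76.2%, 74.5% and 27.7%. That length, also chosen after seeing the data, gave 91.4%, 94.6%, 92.3% and 47.9% for *Hsp90aa1* in the HSP90 pair. Leaving out libraries gave 70.5% to 71.6%, 78.3% to 79.2%, 77.7% to 79.8% and 42.8% to 45.1%.

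The 31 values fell in these results, given on the log2 scale. From round to condensing spermatids in wild-type, *Hspa1l* was -0.036 with DESeq2 and -0.019 with its size factors, and -0.21 to 0.11 without single libraries, and *Hspa4l* was 0.037 with library size, 0.041 with at least 10 counts in every library and -0.12 to 0.027 without single libraries. *Hspa1a* and *Hspa1b* ranged there from -0.61 to 0.73 and from -1.22 to 1.49. In the KO, *Hspa5* at the step to round spermatids was 0.021 with size factors, 0.082 with at least 10 counts and -0.087 to 0.071 without single libraries. *Hsp90aa1* at the next step was 0.017 with at least 10 counts and -0.23 to 0.11, and *Hspa4l* -0.042 to 0.10. Between genotypes in round spermatids, leaving out libraries gave -0.059 to 0.036 for *Hspa2*, -0.046 to 0.12 for *Hspa1l* and -0.035 to 0.11 for *Hspa4l*. In condensing spermatids *Hspa2* was 0.0011 with the replicate block and -0.16 to 0.087, *Hspa1l* -0.27 to 0.099 and *Hspa1a* -1.20 to 0.13, and the difference of the *Hspa1l* effect between the last stages was -0.27 to 0.098. Depth limits *Hspa1a* and *Hspa1b*, whose counts before spermatozoa were at most 40 and 59.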
